A study of Mus musculus with 2 samples.

Results

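The genes described here were 10 enzymes of fatty acid synthesis and desaturation, namely Acly, Acss2, Acaca, Fasn, Scd1, Scd2, Elovl1, Elovl6, Fads1 and Fads2. They were picked by symbol, with earlier results of these data known. All 10 were among the 14197 genes of the table. 4T1 is a murine mammary carcinoma cell line, labelled as wild type, and astragalin (AS) is a plant flavonoid. One sample of 4T1 cells was exposed to AS at 20 μM for 24 h and another received the vehicle, named as DMSO elsewhere in the study's methods, and 1 RNA-seq library represented each condition, of 44909680 reads for AS and 50820725 for the vehicle. Without a second library, the spread between cultures is not known, so no test of AS was possible, and every interval here covers counting error only. The RPKM (reads per kilobase of exon, per 1000000 reads of the library) is a share of all reads of a library, so it does not give amounts of mRNA per cell. Each library pools many cells, so less mRNA in each cell and fewer cells expressing a gene cannot be told apart.

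Cells make fatty acids in the cytosol from acetyl-CoA. Acly cleaves citrate to acetyl-CoA, and Acss2 makes it from acetate. Acaca carboxylates it to malonyl-CoA, the step that commits carbon to this route, and Fasn builds palmitate from both. Elovl6 lengthens palmitate to stearate, while Elovl1 extends fatty acids that are already long. Scd1 and Scd2 place the first double bond into saturated acyl-CoA, and Fads1 and Fads2 desaturate the essential polyunsaturated fatty acids. Many of these genes are known targets of the sterol-regulated transcription factors SREBP1 and SREBP2, encoded by Srebf1 and Srebf2. Tumour cells are known for high rates of this synthesis.

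The RefSeq promoter windows of the 3 genes with the lowest AS to vehicle ratios among those with a reference window are given first. Each runs from 250 bases before to 50 bases after the RefSeq transcription start on GRCm38.p6 and is written along the gene's own strand. The Fads2 window lies at chr19:10101454-10101753, the Fasn window at chr11:120824498-120824797 and the Acly window at chr11:100527951-100528250, all on the minus strand. Capitals mark the letters CCAAT (the box bound by NF-Y) and GGGCGG (the GC box bound by Sp1), on either strand.
Fads2: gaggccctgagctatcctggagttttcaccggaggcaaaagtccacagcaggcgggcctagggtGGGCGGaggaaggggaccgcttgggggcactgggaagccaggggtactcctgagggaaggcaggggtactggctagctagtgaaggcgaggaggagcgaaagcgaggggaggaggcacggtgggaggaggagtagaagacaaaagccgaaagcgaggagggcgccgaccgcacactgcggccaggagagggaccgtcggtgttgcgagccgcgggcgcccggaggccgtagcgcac
Fasn: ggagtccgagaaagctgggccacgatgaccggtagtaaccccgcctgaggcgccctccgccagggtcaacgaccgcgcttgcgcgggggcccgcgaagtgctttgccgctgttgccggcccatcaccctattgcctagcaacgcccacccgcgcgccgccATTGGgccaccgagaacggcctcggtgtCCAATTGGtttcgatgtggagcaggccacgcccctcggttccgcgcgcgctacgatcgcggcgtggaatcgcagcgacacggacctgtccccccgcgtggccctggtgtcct
Acly: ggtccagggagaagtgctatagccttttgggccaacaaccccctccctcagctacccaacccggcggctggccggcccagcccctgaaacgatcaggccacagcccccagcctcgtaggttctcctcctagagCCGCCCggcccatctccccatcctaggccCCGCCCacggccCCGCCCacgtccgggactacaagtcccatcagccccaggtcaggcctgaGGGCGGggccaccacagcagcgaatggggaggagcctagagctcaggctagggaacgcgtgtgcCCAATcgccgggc
The Fasn window held 3 CCAAT boxes, at 90, 62 and 59 bases before the start, and the last 2 of these overlap in a short palindrome. The Acly window held 4 GC boxes, from 117 to 27 bases before the start, and a CCAAT box 38 bases into the transcript. The Fads2 window held 1 GC box, 186 bases before the RefSeq start. The annotated Fads2 gene reaches upstream to 10101746, so this box and nearly all of the window lie inside the annotated gene. For Fasn and Acly, the RefSeq start is where the annotated gene begins. Over all 32851 RefSeq windows of this length, 37.4% held CCAAT and 35.7% held GGGCGG; over the 12391 windows of genes in the table the shares were 37.8% and 62.4%. Of the 8 windows found for 7 of the enzymes, 4 held CCAAT and 5 held GGGCGG. Elovl1 had the extra window. The Acaca window, chr11:84195188-84195487, lies inside the annotated gene, far from its beginning at 84129672. The core of the sterol regulatory element, searched as TCACNCCAC on both strands, and the E-box CACGTG were in none of these 8 windows. They were in 1.24% and 7.15% of all windows, and in 1.15% and 9.77% of the windows of genes in the table. These are matches of letters only, and binding was not measured.

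The levels of the 10 genes spanned a wide range in vehicle-treated cells (the plot of levels by library). In the vehicle library Scd2 stood highest, with 104 RPKM, followed by Fads2 with 61.3, Acly with 33.9, Fasn with 19.9 and Elovl6 with 17.4. Scd1 had 9.19 RPKM, Acaca 8.34, Fads1 8.26, Acss2 2.27 and Elovl1 2.09. Scd2 alone made up 38.9% of the summed RPKM of the 10 genes, and Fads2 another 23.0%. Of all genes, 96.5% had a lower level than Scd2 and 28.8% a lower level than Elovl1. Among neighbours in this order, Acaca with Fads1 and Acss2 with Elovl1 had overlapping 95% Poisson intervals. In the AS library the order kept Scd2, Fads2 and Acly at the top. There Elovl6 stood above Fasn and Acaca above Scd1, in each case with overlapping intervals, and the intervals of Acss2 and Elovl1 overlapped again.

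**Figure D1:**
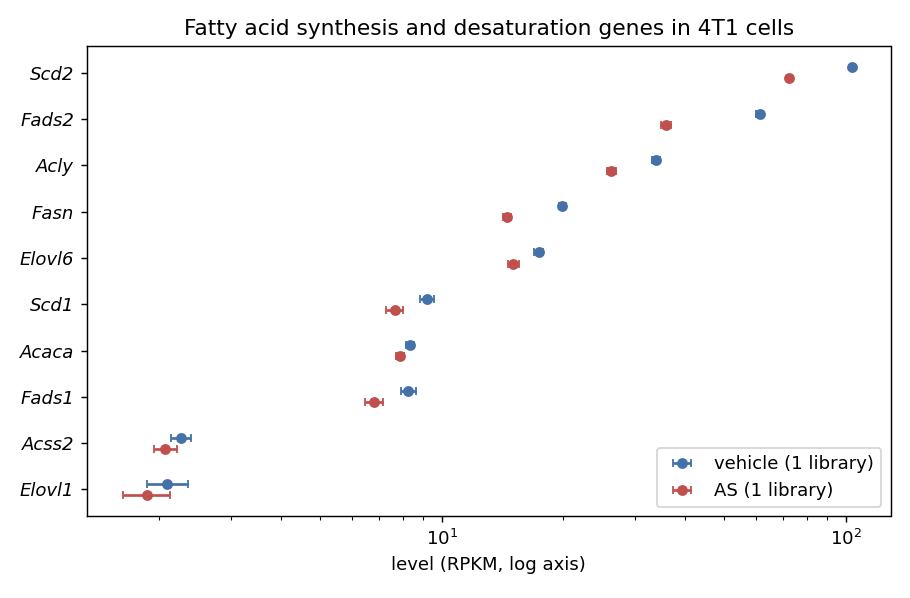
Level of each gene in the vehicle library (blue) and the AS library (red), in RPKM on a log axis, ordered by the vehicle level; 1 library per condition, and the bars are exact 95% Poisson intervals of the reads. The red point lies left of the blue point for all 10 genes, with the widest gaps for Fads2 (61.3 and 35.9 RPKM) and Scd2 (104 and 72.4 RPKM).

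All 10 genes were lower in the AS library, where 39.1% of all genes were lower. The median log2 fold change of the 10, computed with 0.1 RPKM added to both values, was -0.27, and that of all 14197 genes was 0.07. With TMM scaling of the reads, which centres the typical gene near 0, 49.9% of all genes were lower, all 10 enzymes still were, and their median was -0.34. No enzyme differed by more than 2-fold (1 on the log2 scale), a limit that 0.31% of all genes passed downward and 0.662% upward. The study set this limit together with an FDR limit, which was not applied here. The study's methods also state a lower limit of 1.5-fold, given there for the spots of an array and with a p-value limit. By the 1.5-fold limit alone, only Fads2 was called lower, against 2.01% of all genes, and 0 of the enzymes were called higher, against 3.56%. With upper-quartile scaling of the reads, Scd2 joined Fads2 at -0.59, and with TMM scaling Scd2 was just short of this limit at -0.584. Over all genes, 286 were lower and 505 higher by more than 1.5-fold, and TMM scaling made these counts 394 and 391. The summed RPKM of the 10 genes was 190 under AS and 266 under the vehicle, a ratio of 0.715. In reads, they took up 1139 of each 1000000 under AS and 1532 under the vehicle.

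**Figure D2:**
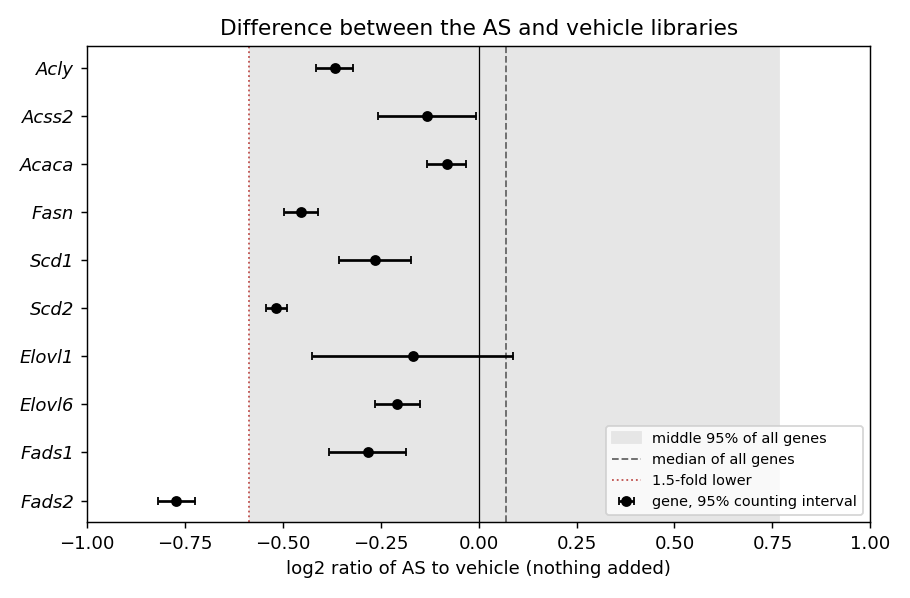
Log2 ratio of AS to vehicle for each gene, from Acly at the top to Fads2 at the bottom, with nothing added to the values; bars are 95% Clopper-Pearson intervals of the reads, the grey band holds the middle 95% of all genes and the dashed line is their median. Fads2 lies outside the band and below the line at 1.5-fold lower, all 10 points lie left of 0, and the interval of Elovl1 alone crosses 0.

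Acetyl-CoA supply came first in the route. Acly (chromosome 11, 100476353 to 100528000, minus strand, GRCm38) had 26.3 RPKM under AS and 33.9 under the vehicle, from 6230 and 9094 reads. Its log2 fold change was -0.37 (95% Clopper-Pearson interval of its reads, -0.41 to -0.32), and 6.17% of all genes had a lower value. Acss2 (chromosome 2, 155517948 to 155585724) was a minor species in both libraries, with 2.07 and 2.27 RPKM from 944 and 1170 reads. Its log2 fold change of -0.13 had an interval from -0.26 to -0.0063. Parts of its exons overlap those of Gss, Ggt7 and Acss2os on the other strand, over 3.89%, 1.94% and 3.30% of the exon length, and the strand setting of the counting is not stated. Within a library, the RPKM of Acss2 was 0.0787 times that of Acly under AS and 0.0668 times under the vehicle. The first ratio was 1.18 times the second, with an exact conditional 95% interval from 1.07 to 1.29. Such a ratio of 2 genes does not depend on the scaling between the libraries. Slc25a1, the mitochondrial carrier that exports the citrate used by Acly, had 10.5 RPKM under AS and 15.6 under the vehicle, or a log2 fold change of -0.57.

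The next pair of enzymes differed from each other. Fasn (chromosome 11, 120805846 to 120824547, minus strand) had 14.5 RPKM under AS and 19.9 under the vehicle, from 7133 and 11058 reads. Its log2 fold change was -0.45, with an interval from -0.50 to -0.41. Acaca (chromosome 11, 84129672 to 84401651) had 7.88 and 8.34 RPKM, from 6043 and 7237 reads, and its log2 fold change of -0.08 was the one nearest to 0 among the 10 genes. The interval of Acaca ran from -0.13 to -0.03. The RPKM ratio of Fasn to Acaca was 1.84 under AS and 2.38 under the vehicle, so that the ratio was 0.773 times as high under AS (interval 0.738 to 0.809). Reads of Acaca could be shared with Gm5182, since 29.2% of the windows of 50 bases in Acaca transcripts also occur in transcripts of that gene. Gm5182 had 78 reads under AS and 95 under the vehicle. Acacb, the carboxylase isoform at the outer mitochondrial membrane, was low and went the other way, with 1.41 RPKM under AS and 1.11 under the vehicle, or a log2 fold change of 0.32.

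Of the elongases, Elovl6 (chromosome 3, 129532355 to 129638495) had 15.04 RPKM under AS and 17.4 under the vehicle, from 4345 and 5678 reads, and a log2 fold change of -0.21 with an interval from -0.27 to -0.15. Elovl1 (chromosome 4, 118428093 to 118432953) had the fewest reads of the 10, 228 and 290, with 1.86 and 2.09 RPKM, and 1.94% of its exon length overlaps Cdc20 on the other strand. Its log2 fold change was -0.16, and its interval, which covers counting error only, ran from -0.43 to 0.09 and so includes 0. Elovl6 was 8.08 times as high as Elovl1 under AS and 8.30 times under the vehicle. The quotient of these ratios was 0.973, with an interval from 0.812 to 1.17, which leaves room for a change of either sign. Elovl5, which lengthens polyunsaturated fatty acids made by Fads2, had 16.1 RPKM under AS and 15.5 under the vehicle, or a log2 fold change of 0.05, which lay below the median of 0.07 of all genes.

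The stearoyl-CoA desaturases lie in a cluster on chromosome 19. Scd2 (44293674 to 44306864, plus strand) had 72.4 RPKM under AS and 104 under the vehicle, from 17766 and 28759 reads, the most of the 10 genes. Its log2 fold change was -0.52 with an interval from -0.54 to -0.49, and 2.88% of all genes had a lower value. Scd1 (44394455 to 44407879, minus strand, 87.6 kb from Scd2) had 7.65 and 9.19 RPKM, from 1680 and 2284 reads, and a log2 fold change of -0.26 with an interval from -0.36 to -0.17. Scd2 was therefore the main stearoyl-CoA desaturase transcript in both libraries, at 9.47 times the RPKM of Scd1 under AS and 11.3 times under the vehicle. The quotient was 0.840 (interval 0.786 to 0.897). Scd3, 49.7 kb from Scd2 on its other side, had 42 reads under AS and 54 under the vehicle. The copies are related in sequence, and 4.56% of the windows of 50 bases of Scd1 and 3.97% of those of Scd2 occur in transcripts of other genes. A microRNA gene, Mir5114, lies in an exon of Scd2 on the same strand and was looked at after its values were seen. It was listed with 936 reads for AS and 1081 for the vehicle, a log2 fold change of -0.03. How reads in the stretch shared by Mir5114 and Scd2 were assigned is not given in the sources used here, so these reads cannot be told apart from those of Scd2, and the value is not set against that of Scd2.

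The largest difference of the 10 genes was that of Fads2, whose product makes the first desaturation of linoleic and alpha-linolenic acid. Fads2 (chromosome 19, 10062765 to 10101746, minus strand) had 35.9 RPKM under AS and 61.3 under the vehicle, from 5312 and 10260 reads, a ratio of 0.586. It fell by 0.77 on the log2 scale, with an interval from -0.82 to -0.72, and 0.852% of all genes had a lower value. Fads1 (10182888 to 10196877, plus strand, 81.1 kb away), which acts later in the same route, had 6.79 and 8.26 RPKM, from 1467 and 2020 reads. Its log2 fold change was -0.28, with an interval from -0.38 to -0.19. The ratio of Fads2 to Fads1 was 5.29 under AS and 7.42 under the vehicle, and the quotient of 0.713 (interval 0.661 to 0.769) was the lowest of the 5 pairs compared. Fads3, the third gene of the cluster and 2.65 kb from Fads2, differed in the other direction, with 4.66 RPKM under AS and 3.48 under the vehicle, from 793 and 671 reads, or a log2 fold change of 0.41 (interval 0.27 to 0.57). The 3 genes of this cluster thus had values of -0.77, -0.28 and 0.41.

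**Figure D3:**
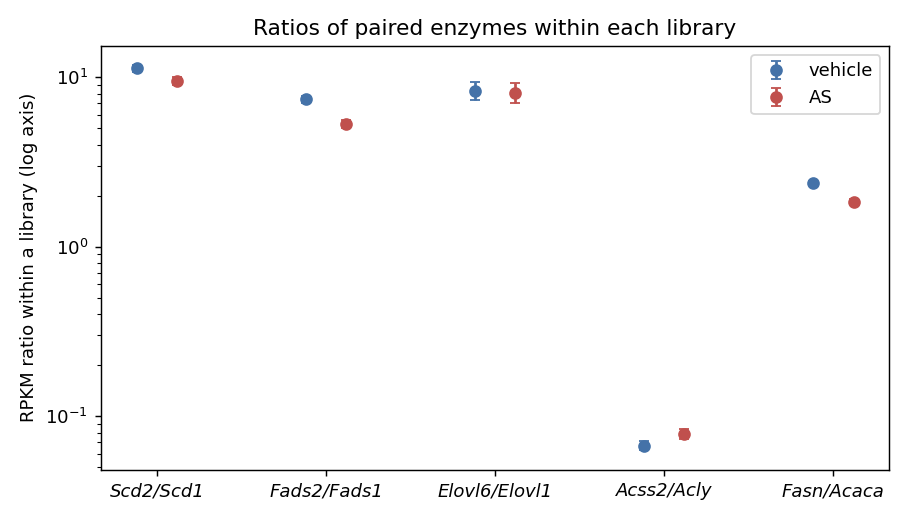
RPKM ratio of paired enzymes within the vehicle library (blue) and the AS library (red), on a log axis, with exact 95% binomial intervals of the reads. Fads2/Fads1 is 7.42 under the vehicle and 5.29 under AS, and Fasn/Acaca is 2.38 and 1.84, while Elovl6/Elovl1 has overlapping bars at 8.30 and 8.08.

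Across the 10 genes, the larger differences went with the higher levels. The 4 genes with the highest vehicle RPKM, Scd2, Fads2, Acly and Fasn, were also the 4 with the lowest log2 fold changes. Spearman's rho between the level and the log2 fold change over the 10 genes was -0.82 with the vehicle level and -0.72 with the AS level, given as a description, since the points share both libraries and the level is part of the fold change. Over all 14197 genes rho with the vehicle level was -0.22.

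The partner enzymes of the route had a median nearer 0. Of 28 listed genes, 21 were in the table, and their median log2 fold change was -0.03, against 0.07 for all genes. At 1.5-fold, 1 was lower and 0 were higher, against 2.01% and 3.56% of all genes. TMM scaling made 2 of the list lower and moved its median to -0.10. Without this scaling, the lower gene was Aacs, which makes acetoacetyl-CoA in the cytosol for lipid synthesis. Aacs had 9.32 RPKM under AS and 14.97 under the vehicle (log2 fold change -0.68). Me1, the malic enzyme that supplies NADPH to Fasn, had 12.4 and 9.80 RPKM, or a log2 fold change of 0.33. Mid1ip1, an activator of the acetyl-CoA carboxylases, had a log2 fold change of 0.26. Scd4, Elovl2, Elovl3, Elovl4, Fads6, Thrsp and Olah were not in the table, whose filter on low genes is not stated. Hsd17b12, the ketoreductase of the elongation cycle, had a value of -0.03, and Cyb5r3, which passes electrons toward the desaturases, had -0.11.

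Among the regulators, the transcripts of both SREBP genes were lower under AS, without passing 1.5-fold. Srebf1 had 3.81 RPKM under AS and 5.02 under the vehicle, or a log2 fold change of -0.39 (interval -0.52 to -0.28). Srebf2 had 7.997 and 10.7 RPKM, or a log2 fold change of -0.42 (interval -0.50 to -0.35). Insig1, which retains the SREBP escort protein in the endoplasmic reticulum and is itself an SREBP target, fell by 0.71, from 23.3 to 14.2 RPKM. Scap, that escort protein, and Insig2 had values of -0.02 and -0.02. The median of the 21 regulators in the table was 0.08, against 0.07 for all genes, and TMM scaling moved it to 0.01. Of these regulators, 1 was higher and 1 lower at 1.5-fold, against 3.56% and 2.01% of all genes. The higher one was Trib3, a pseudokinase of the stress response known to direct acetyl-CoA carboxylase to degradation, with 27.9 RPKM under AS and 6.43 under the vehicle (log2 fold change 2.10).

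The sterol branch, which shares SREBP control, is set beside the 10 enzymes for its size. All 20 of its genes in the table were lower under AS, against 39.1% of all genes. Of these, 14 were more than 1.5-fold lower, against 2.01% of all genes and 1 of the 10 fatty acid enzymes. The count of 14 became 10 with 1 RPKM added and 15 with TMM scaling. The median of the 20 sterol genes was -0.67, and that of the 10 enzymes was -0.27. Hmgcs1, at the entry to the mevalonate route, had 28.7 RPKM under AS and 55.9 under the vehicle. Fads2 at -0.77 lay within the range of the sterol genes, from -1.03 to -0.15, and Acaca and Acss2 lay above it. The difference between the branches was not tested, since each condition had 1 library.

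The lists of genes that take up, store or burn fatty acids had medians between -0.0038 and 0.12. Of the genes for activation, uptake and binding, 14 of 20 were in the table, with a median of -0.0038. There Fabp5, a fatty acid binding protein of epithelial cells, had 41.3 RPKM under AS and 77.4 under the vehicle (log2 fold change -0.90), and Acot2, a mitochondrial acyl-CoA thioesterase, had 7.50 and 2.68 RPKM, or a log2 fold change of 1.45. The 21 genes of glycerolipid and phospholipid assembly had a median of 0.12. Gpat3, which makes lysophosphatidic acid, was higher by 0.88, with 7.34 and 3.95 RPKM, and Chka, the first enzyme of phosphatidylcholine synthesis, by 0.65. In the oxidation list, 20 of 24 genes were higher under AS, as were 8642 of all 14197 genes. Of these 24 genes, 0 passed 1.5-fold in either direction, against 2.01% of all genes downward and 3.56% upward. The median of the list was 0.10, close to the 0.07 of all genes. TMM scaling moved this median to 0.04 and made 37.5% of the list lower, against 49.9% of all genes. Cpt1a, which admits fatty acids to the mitochondrion and was chosen after its values were seen, had a log2 fold change of 0.34.

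**Figure D4:**
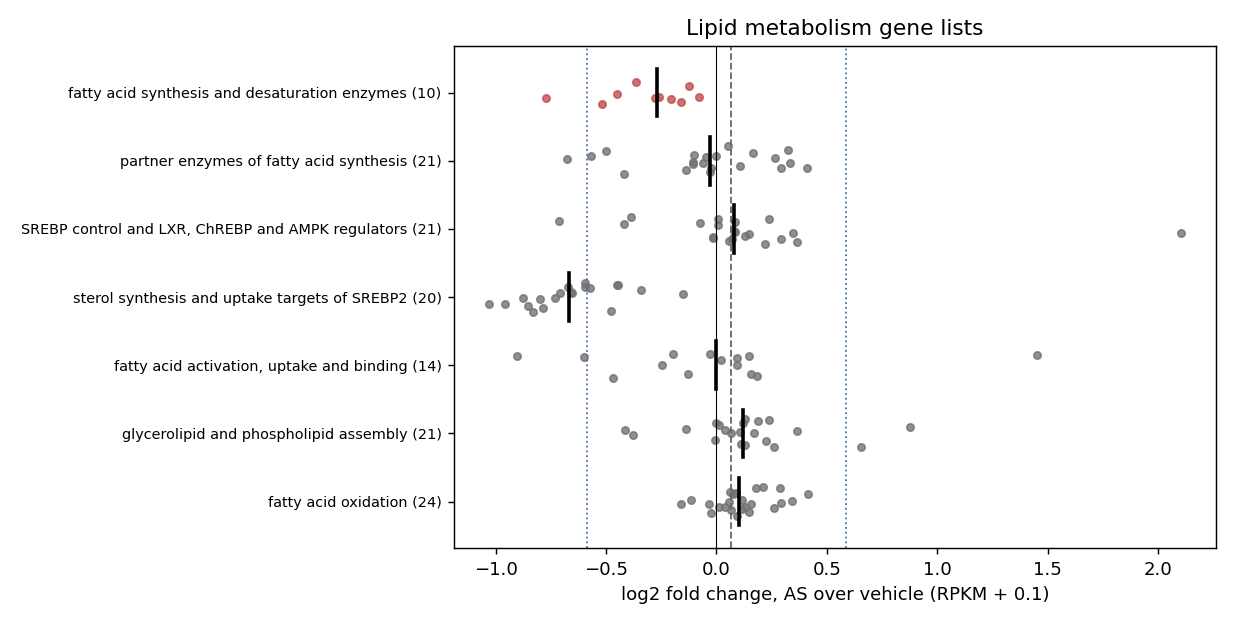
Log2 fold change of AS over vehicle (0.1 RPKM added) for each gene of 7 lipid lists; a dot is a gene, the black bar is the list's median, the dashed line the median of all genes and the dotted lines mark 1.5-fold differences; the number of genes in the table is in brackets. The 10 fatty acid enzymes (red) all lie below 0 with a median of -0.27, the sterol genes have a median of -0.67 and the other 5 lists have medians from -0.03 to 0.12.

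The libraries had the markers of the labelled line. Epcam, Krt8, Krt18, Krt14, Cdh1 and Cldn7 were all in the table, and their summed RPKM was 1535 under AS and 1922 under the vehicle. Of these 6, 5 were lower under AS, with Krt14 at -0.96 and Krt8 at -0.54, and their part in the values of the fatty acid enzymes was not tested. Of 7 adipocyte markers, 0 were in the table, whose filter on low genes is not stated. Of 8 leukocyte markers 4 were in the table, with summed RPKM of 26.9 and 30.5, mostly from Cd68, while Ptprc had 0.116 and 0.114 RPKM. Of 8 endothelial and fibroblast markers 2 were in the table, Pdgfra and Col1a1, with summed RPKM of 5.13 and 4.87.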

How the data were processed

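The authors deposited 1 table with the RPKM of each library and a log2 of the mean CPM; its fold change, p-value and FDR columns were not used. The submitters' processing notes name fastp 0.23.4, STAR 2.5.3a, featureCounts and the build GRCh38, although the cells are murine. The strand setting, the treatment of multimapping reads and the filter on low genes are not given in the sources used here. RPKM multiplied by the exon length of GENCODE M21 (GRCm38) gave whole reads, within 0.05, in both libraries for 12738 of 13502 genes with a single entry there, all 10 members included, and implied library sizes of 44909680 reads (AS) and 50820725 reads (vehicle). Recovery was also run on simulated data built from the same exon lengths, so that run could not check whether these lengths fit the authors' values.

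Fold changes are log2 ratios of AS to vehicle with 0.1 RPKM added, which understates changes of low genes. Called means past a 1.5-fold or 2-fold difference; no p-value was computed. Intervals are Clopper-Pearson, Poisson or exact conditional intervals at 95%, and reads without molecular identifiers are not independent molecules. TMM scaling was computed in Python 3.11 with scipy 1.17.1. Members and gene lists were chosen with earlier results of these data known. The genes named are the 10 members, 15 preset genes (1 of them is not reported here), and per list up to 4 rises and 4 falls past 1.5-fold with a mean of at least 100 reads; other named genes serve as examples, markers or overlapping genes and were chosen after their values were seen. RefSeq windows were matched by symbol for 7 of the 10 members.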

Additional observations from a re-analysis of the deposited data

How the results depend on the processing

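The alternatives were 0 or 1 RPKM added, scaling of the recovered reads by TMM, by the median of ratios or by the upper quartile, thinning of the deeper library, a minimum mean of 50 reads and the mean in place of the median. The 10 enzymes stayed lower with AS under each of these that applied to single genes. Upper-quartile scaling raised the number lower by more than 1.5-fold from 1 to 2, by adding Scd2 at -0.59. No other alternative changed a count of enzymes past a threshold. Scd2 was nevertheless just short of the 1.5-fold limit with TMM scaling and with the median of ratios, at -0.584 in both. The median log2 fold change of the 10 ranged from -0.34 with upper-quartile scaling to -0.24 with 1 RPKM added. The 3 scalings by reads shifted fold changes down by 0.07, which took Acly, Acaca, Fasn, Scd2, Elovl6 and Fads2 outside their counting intervals, with Fads2 from -0.84 to -0.76 over all settings and Acaca from -0.15 to -0.07. Over all genes, 354 were lower by more than 1.5-fold with nothing added, 130 with 1 RPKM added and 286 in the values reported. The genes more than 2-fold higher and lower numbered 161 and 66 with nothing added and 38 and 16 with 1 RPKM added, against 94 and 44, and those more than 1.5-fold higher numbered 189 with 1 RPKM added, against 505. The ratios of paired enzymes stayed within their intervals when the deeper library was thinned. Elovl1 and Acss2 had the fewest reads, and the counting interval of Elovl1 includes 0. With 1 library per condition, error between cultures cannot be measured. No paired analysis was possible because each condition had 1 library.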
